A study of Mus musculus with 4 samples.

Results

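Colony-stimulating factors are secreted proteins that tell myeloid cells to survive, divide and mature. The 7 mouse genes described here are the ligands Csf1, Csf2 and Il34 and the receptor chains Csf1r, Csf2ra, Csf2rb and Csf3r, taken by gene symbol from a table of 27998 genes in immune cells of healthy brain and of glioma-bearing brains. All 7 were found under their symbols. CSF1 and interleukin-34 are the ligands of CSF1R, a receptor tyrosine kinase on which microglia, the resident macrophages of the brain, depend for survival. CSF2 (GM-CSF) is made by activated lymphocytes. It binds a receptor of a ligand-specific alpha chain (Csf2ra) and a signalling beta chain (Csf2rb) that is shared with the receptors for interleukins 3 and 5. CSF3R is the receptor for G-CSF, the growth factor of neutrophils.

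On the mm10 (GRCm38) assembly all 7 are protein-coding genes. Among the ligands, Csf1 lies at chr3:107741048-107760469 on the minus strand, Csf2 at chr11:54247271-54249667 on the minus strand and Il34 at chr8:110741829-110805924 on the minus strand. Among the receptor chains, Csf2ra lies at chr19:61223957-61228429 on the minus strand, Csf2rb at chr15:78325752-78353847 on the plus strand and Csf3r at chr4:126024550-126044440 on the plus strand. Csf2rb has a near-identical neighbour on the other strand, Csf2rb2, at chr15:78282507-78305721. The Csf2rb and Csf2rb2 transcripts share 28.0% of the 31-base words of Csf2rb, but in the last 500 bases, where a 3' library is read, 6 of 470 words were shared, so reads could be split between them only in small part and the Csf2rb counts carry that uncertainty.

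Promoter sequence is shown for a ligand, Csf1, and a receptor chain, Csf2ra, as the 100 bases before the transcription start on the gene's strand in the RefSeq table (GRCm38.p6). RefSeq promoters were matched for 4 of the 7 genes, and those of Csf2 and Csf3r are not shown. Capitals mark the motifs found by a search of both strands for a CRE (TGACGTCA), an AP-1 site (TGANTCA), a PU.1 site (GAGGAAG), a C/EBP site (TTGCNNAA) and an NFAT site (GGAAAA).
Csf1, chr3:107760470-107760569, minus strand: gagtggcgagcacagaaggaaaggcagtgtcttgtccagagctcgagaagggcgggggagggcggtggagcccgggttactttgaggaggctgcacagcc
Csf2ra, chr19:61228419-61228518, minus strand: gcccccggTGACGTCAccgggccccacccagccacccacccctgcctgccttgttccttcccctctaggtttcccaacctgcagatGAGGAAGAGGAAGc
The GENCODE start of Csf2ra lies upstream of the RefSeq start used here, so the last 11 bases of its stretch lie inside the gene as placed above; the Csf1 stretch ends where the gene begins. The Csf2ra stretch held a CRE that begins 92 bases before the start and a pair of PU.1 letters that begin 14 and 8 bases before it and overlap by 1 base. PU.1 is a transcription factor of myeloid cells. Of 32851 promoters in the table, 1.55% held the CRE, 10.6% the PU.1 letters and 9.56% the C/EBP letters in the 250 bases before the start. Among the matched promoters not shown, that of Csf3r held PU.1 letters that begin 86 bases before its RefSeq start. That of Csf2 held C/EBP letters that begin 145 bases before its RefSeq start. The RefSeq starts of Csf2 and Csf3r differ from the GENCODE starts of the genes as placed above. The Csf1 stretch, and the whole of its 250 bases, held none of the 5 motifs.

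The 4 libraries hold 1 group each, so there are no replicates, no test between groups is possible, and intervals cover counting error only. Glioma-005 cells, a mouse glioblastoma line, were injected into the hippocampus, and the C57BL/6J hosts were aged 8 to 12 weeks. From day 7 mice received anti-CTLA-4 (clone 9H10) with a CD4-depleting antibody (GK1.5), anti-CTLA-4 alone, or isotype control IgG2a (LTF-2), and at day 35 each tumor library pooled 3 tumors; the fourth library is healthy brain of the same strain. CTLA-4 is an inhibitory receptor of T cells, and its blockade releases their activation. Immune cells were sorted as microglia, CD45hi CD11b+ myeloid cells, CD3+ T cells and the rest and mixed at equal ratios, so the share of a class follows the sort, and neurons, a known source of interleukin-34, were not collected. The libraries held 3916, 1874, 1484 and 1420 barcodes and 21471565, 13428840, 9952379 and 7950206 unique molecular identifiers (UMIs) for depletion, anti-CTLA-4, IgG and healthy brain, and 3706, 1763, 1434 and 1388 cells were kept. Between 1 and 9 barcodes of a library also occurred in another. The tumor libraries carried 715 to 950.5 counts per 1000000 UMIs (CPM) of Xist against 2.19 in healthy brain, so the sex of the mice differed between tumor and healthy brain and cannot be told apart from the tumor. A Cd4 UMI was found in 1.73% of T cells with depletion, 37.5% with anti-CTLA-4, 34.8% with IgG and 30.99% in healthy brain.

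Cells were grouped by their transcripts, without using the 7 genes, into classes that are named for their likeness to a cell type. T cells (clusters 4, 7, 8 and 13) numbered 1100, 506, 405 and 142 in the depletion, anti-CTLA-4, IgG and healthy brain libraries, and microglia (clusters 1, 6 and 11) 534, 209, 303 and 791. Macrophages (clusters 2 and 5) numbered 728 with depletion, 247 with anti-CTLA-4, 248 with IgG and 11 in healthy brain, and are not compared with healthy brain. The clusters behind a class differed by library. Of the microglia with depletion 325 lay in cluster 6, of those with anti-CTLA-4 and IgG 171 and 266 lay in cluster 1, and of those in healthy brain 785 lay in cluster 11. With depletion 431 macrophages lay in cluster 2, which held 13 cells of the other libraries. Neutrophils likewise came mainly from cluster 9 with depletion, from cluster 14 with anti-CTLA-4 and IgG and from cluster 16 in healthy brain. A level below is the class's CPM of a gene over all UMIs of that class and library, with an exact 95% Poisson interval in brackets where it is given.

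The ligands and the receptor chains were split between cell types. Csf2 was a lymphoid transcript, with 215 of its 254 UMIs in T cells, 24 in NK cells and 10 in type 17 innate-like lymphoid cells. T cells held 84.6% of them, at 26.0% of all cells, but 172 of these UMIs came from 1 cell, and without it T cells held 43 of 82 (52.4%). Csf1 had both lymphoid and myeloid sources. Of its 1174 UMIs, neutrophils held 30.4%, microglia 28.4%, T cells 18.7% and macrophages 15.1%. The receptor chains were myeloid. Microglia held 75.3% of the 38197 Csf1r UMIs and macrophages 16.3%. Macrophages held 54.0% of the 6382 Csf2rb UMIs and 38.1% of the 3529 Csf2ra UMIs, and neutrophils held 40.1% of the 5175 Csf3r UMIs. Il34 gave 2 UMIs in the whole series.

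T cells of the anti-CTLA-4 library had the highest Csf1 level among T cells of the 4 libraries. Csf1 in T cells stood at 6.15 CPM (4.15 to 8.78) with depletion, 42.3 CPM (35.4 to 50.1) with anti-CTLA-4, 21.7 CPM (16.3 to 28.3) with IgG and 1.13 CPM (0.0286 to 6.28) in healthy brain. These levels rest on 30, 134, 54 and 1 UMIs, with at most 5 UMIs in any cell. No single cell set the levels of the tumor libraries, while that of healthy brain came from 1 cell. The intervals of the 3 tumor libraries did not overlap. With depletion the level was 6.88-fold lower than with anti-CTLA-4 (interval 4.60 to 10.6). With anti-CTLA-4 it was 1.95-fold that with IgG (1.41 to 2.73), and with IgG 19.2-fold that in healthy brain (3.31 to 773).

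In single cells, Csf1-positive cells made up 2.27% of T cells with depletion, 15.4% with anti-CTLA-4, 9.38% with IgG and 0.704% in healthy brain, at medians of 3978, 5457.5, 5210 and 6054.5 UMIs per cell. NK cells, whose Csf1 level was near 0, had 0.356% with depletion, 0.276% with anti-CTLA-4 and 1.22% with IgG, at medians of 3018, 4904.5 and 4839.5 UMIs, so the T cell share stood above this background in all 3 tumor libraries and by least with depletion. After every cell was thinned to 1000 UMIs the T cell shares were 0.461% with depletion, 4.16% with anti-CTLA-4, 1.81% with IgG and 0% in healthy brain, which left out 15, 1, 19 and 0 shallower cells. The order of the libraries by CPM was the same as that of the thinned shares.

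Within T cells, Csf1 was highest in cluster 8 with anti-CTLA-4 and IgG, while with depletion clusters 4 and 7 stood above cluster 8. Cluster 8, whose leading genes include Cd4 and Cd40lg, had 5.44 CPM with depletion, 85.4 CPM with anti-CTLA-4 and 52.1 CPM with IgG. Cluster 4, led by Cd8a and Cd8b1, had 9.05 CPM with depletion, 46.7 CPM with anti-CTLA-4 and 17.5 CPM with IgG. Both clusters put the anti-CTLA-4 library highest and the depletion library lowest. Cluster 7, led by Foxp3, the defining factor of regulatory T cells, differed little, at 9.44 CPM with depletion, 14.2 CPM with anti-CTLA-4 and 14.5 CPM with IgG. Cluster 13, with the naive T cell factors Lef1 and Tcf7 among its leading genes, gave 1 Csf1 UMI in all 4 libraries, and 119 of the 142 T cells of healthy brain belonged to it.

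A cluster is not a lineage here, because clusters 8 and 7 held different cells in different libraries. In cluster 8 a Cd4 UMI was found in 3.23% of cells with depletion, 77.2% with anti-CTLA-4 and 68.8% with IgG, while 74.9%, 7.38% and 4.30% held Cd8a or Cd8b1. In cluster 7 a Cd4 UMI was found in 0.521%, 43.8% and 39.3% of cells in the same libraries, while 46.4%, 8.90% and 5.52% held Cd8a or Cd8b1. Csf1 is therefore also given by the T cell's own Cd4 or Cd8 UMIs. The depletion library kept 18 T cells with a Cd4 UMI, and these held 1 Csf1 UMI. Among such cells it had 66.6 CPM in 176 cells with anti-CTLA-4 and 38.7 CPM in 135 cells with IgG, a ratio of 1.72 (1.13 to 2.67). Among T cells with a Cd8 UMI it had 5.39 CPM in 771 cells with depletion, 41.7 CPM in 150 cells with anti-CTLA-4 and 10.8 CPM in 83 cells with IgG. The level in Cd8-bearing cells was thus 7.74-fold lower with depletion than with anti-CTLA-4 (4.53 to 13.7), and 3.87-fold higher with anti-CTLA-4 than with IgG (1.75 to 10.1). Their median depth was 4341 UMIs with depletion, 7345.5 with anti-CTLA-4 and 6595 with IgG, and at 1000 UMIs per cell the shares with a Csf1 UMI were 0.524%, 3.33% and 0%. T cells with a Foxp3 UMI had 8.41 CPM with depletion, 7.79 CPM with anti-CTLA-4 and 26.4 CPM with IgG, on 5, 4 and 15 UMIs.

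**Figure D1:**
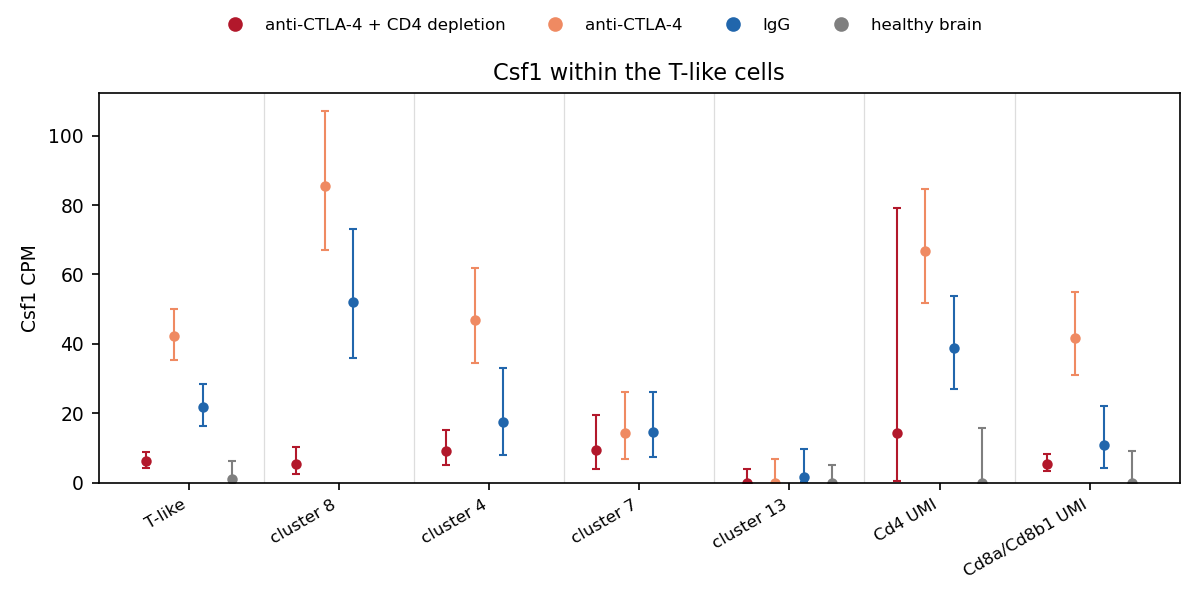
Csf1 level (CPM, y axis) in T cells, in T cell clusters 8, 4, 7 and 13 and in T cells with a Cd4 or a Cd8 UMI (x axis), for each library with at least 15 cells. Points are 1 library each and bars are exact 95% Poisson intervals; the anti-CTLA-4 library is highest in all T cells (42.3 CPM), in clusters 8 and 4 and in both Cd4- and Cd8-bearing cells.

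Ifng and Lta, of a list of 13 other lymphocyte cytokines, were lower with depletion as well. A size rule stands in for a test below. A gene was tested if both libraries summed to 50 UMIs or more, and it passed if the CPM levels differed 2-fold or more and 10% or more of the cells on the higher side held a UMI. In T cells 1.11% of the 8044 tested genes passed it between depletion and anti-CTLA-4. Of the 9 cytokines tested, 2 passed, both lower with depletion, and the median log2 ratio of the list was -0.96 against -0.09 over all tested genes. Ifng, the interferon that activates macrophages, had 36.5 CPM with depletion and 126 CPM with anti-CTLA-4 (3.46-fold lower, 2.89 to 4.15). Lta, lymphotoxin alpha, had 13.3 CPM with depletion and 39.1 CPM with anti-CTLA-4 (2.94-fold lower, 2.16 to 4.03). Of the 3 members tested in this comparison Csf1 passed, and Csf1r and Csf2 did not. Among T cells with a Cd8 UMI, 3.01% of 6672 tested genes passed, including Csf1, the only member tested. There 0 of 8 cytokines passed, with a median log2 ratio of 0.02 against 0.04 over all tested genes. Ifng had 43.9 CPM with depletion and 87.4 CPM with anti-CTLA-4 in these cells, and Lta had 11.04 CPM and 23.7 CPM. Between anti-CTLA-4 and IgG, 0.271% of 7384 tested genes passed, with 0 of 3 members and 0 of 10 cytokines. Between IgG and healthy brain 12.5% of 5954 tested genes passed, among them Ifng, Tnfsf11, Bhlhe40 and Il2ra, but not Csf1, whose share of 9.38% lay below the minimum of the rule. The median log2 ratio over tested genes in T cells was 0.19 between IgG and healthy brain, where naive cluster 13 made up most of the healthy cells.

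Csf2 was rare, and its level in T cells turned on 1 cell. It had 2.87 CPM with depletion, 60.9 CPM with anti-CTLA-4, 2.81 CPM with IgG and 1.13 CPM in healthy brain, on 14, 193, 7 and 1 UMIs. Of the 193 UMIs, 172 came from 1 cell of cluster 8 in the anti-CTLA-4 library. Without that cell the level with anti-CTLA-4 was 6.65 CPM, the ratio to IgG was 2.36 in place of 21.7, and depletion was 2.32-fold lower than anti-CTLA-4 in place of 21.2-fold. Csf2-positive cells made up 1.18% of T cells with depletion, 2.37% with anti-CTLA-4, 1.23% with IgG and 0.704% in healthy brain. The share with anti-CTLA-4 had an interval of 1.23 to 4.11% and that with IgG one of 0.402 to 2.86%, which overlap. Csf2 did not pass the size rule between any of these libraries, since under 10% of T cells carried it.

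The single cell with 172 Csf2 UMIs held 8617 UMIs in all. It also held 38 UMIs of Ifng, 8 of Tnf, 7 of Il7r, 5 of Lta, 3 each of Bhlhe40, Il2ra and Cd3e, 2 of Cd4 and 1 of Csf1, and none of Cd8a, Cd8b1, Foxp3 or Il17a. Bhlhe40 is a transcription factor that T cells need for Csf2 expression, and Il17a is the defining cytokine of type 17 cells. In cluster 8 a Csf2 UMI was found in 5 of 371 cells with depletion, 8 of 149 with anti-CTLA-4 and 2 of 93 with IgG. All 8 of the anti-CTLA-4 cells carried Cd4, while 4 of the 5 depletion cells carried Cd8 and none Cd4. Among the 8, Bhlhe40 was found in 8, Cd40lg in 7, Ifng in 6, Csf1 in 4 and Lta in 4. In the other 141 cells of that cluster and library Bhlhe40 was found in 54.6%, Cd40lg in 55.3%, Ifng in 27.0% and Csf1 in 25.5%. The 8 cells were deeper, with a median of 7290.5 UMIs against 5157, and the part of depth in these shares was not tested.

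Lymphoid cells outside the T cell class also made Csf2. NK cells gave 0 Csf2-positive cells of 281 with depletion, which allows a share of up to 1.07%, 8 of 362 with anti-CTLA-4 (9 UMIs, 4.73 CPM) and 7 of 164 with IgG (15 UMIs, 16.3 CPM). Their level was 3.44-fold lower with anti-CTLA-4 than with IgG (1.41 to 8.92), on 24 UMIs in all. That direction is opposite to the one in T cells, and the difference was not tested. The type 17 innate-like cells of cluster 18, whose leading genes include Cd163l1 and Il17a, held 1.57% of cells and 10 Csf2 UMIs. Positive cells were 5 of 93 with depletion, 4 of 30 with anti-CTLA-4 and 1 of 7 with IgG, or 5.38%, 13.3% and 14.3%. They were the lymphoid class with the highest positive share over all libraries, at 7.69% against 1.85% in NK cells and 1.44% in T cells. As background, 0 of 498 B cells (up to 0.602%), 0 of 1837 microglia (up to 0.163%) and 0 of 768 neutrophils (up to 0.391%) held a Csf2 UMI, against 2 of 1234 macrophages and 2 of 130 cells of the unnamed clusters. Over the 56 Csf2-positive T, NK, B and type 17 cells, Bhlhe40 was found in 48.2%, Ifng in 37.5%, Lta in 23.2% and Csf1 in 12.5%, against 22.1%, 8.51%, 4.61% and 4.10% of the 3536 others. Their median depth was 6647 UMIs against 4370.5.

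**Figure D2:**
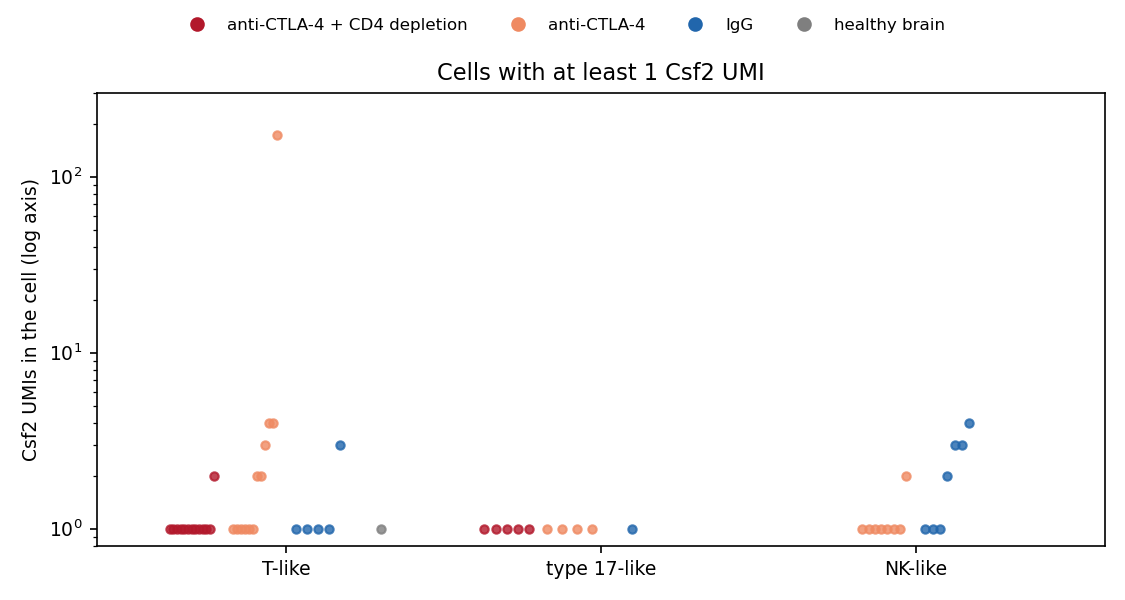
Csf2 UMIs in each Csf2-positive T cell, type 17 innate-like cell and NK cell (y axis, log scale) by library (x axis). Each point is 1 cell; the cell with 172 UMIs in the anti-CTLA-4 library stands apart from all others, the next highest of its cluster and library having 4.

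The remaining ligands of these receptors were nearly absent. Il34 gave 1 UMI in a T cell and 1 in a macrophage, both in the IgG library. Csf3, the ligand of Csf3r, and Il3, a ligand that shares Csf2rb, gave 0 UMIs in 8291 cells, which allows up to 0.0362% of cells with a UMI. Il5, another such ligand, gave 68 UMIs in 11 cells, of which T cells held 15 UMIs with depletion, 0 with anti-CTLA-4, 51 with IgG and 1 in healthy brain. The alpha chain Il3ra was found in macrophages at 24.3 CPM with depletion, 48.0 CPM with anti-CTLA-4 and 36.7 CPM with IgG and in T cells at 18.04 CPM, 24.9 CPM and 26.9 CPM in the same libraries, and Il5ra in B cells at 4.77 to 23.5 CPM.

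Neutrophils had the highest Csf1 level of the named classes in each of the 4 libraries. Csf1 stood at 190.2 CPM (165 to 218) with depletion, 252 CPM (170 to 359) with anti-CTLA-4, 545 CPM (429 to 682) with IgG and 49.5 CPM (35.7 to 66.9) in healthy brain. The IgG library was above all others with no overlap of intervals, and healthy brain below all. These libraries drew on different clusters. In cluster 14, which 3 libraries share, the level was 290.0 CPM with depletion, 261 CPM with anti-CTLA-4 and 569 CPM with IgG. There Csf1 was 2.18-fold lower with anti-CTLA-4 than with IgG (1.40 to 3.47) and passed the size rule, against a background of 5.65% of 832 tested genes, and it was the only 1 of 3 tested members to do so. Between depletion and anti-CTLA-4, 6.76% of 1109 tested genes of cluster 14 passed and 0 of 4 members. Neutrophils are shallow cells, with medians of 1851 UMIs with depletion, 2415 with anti-CTLA-4, 2623 with IgG and 3244 in healthy brain. At 1000 UMIs per cell 17.7%, 17.02%, 35.4% and 7.27% of them had a Csf1 UMI.

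Microglia expressed Csf1 at 34.5 CPM with depletion, 35.2 CPM with anti-CTLA-4, 52.1 CPM with IgG and 16.1 CPM in healthy brain. All 3 tumor libraries were above healthy brain. IgG exceeded healthy brain 3.23-fold (2.35 to 4.47) and passed the size rule. Of the microglia with a Csf1 UMI nearly all also held Csf1r, namely 68 of 69 with depletion, 33 of 34 with anti-CTLA-4, 62 of 64 with IgG and 41 of 41 in healthy brain, where Csf1r was found in over 90% of all microglia. Thinned to 1000 UMIs the shares with a Csf1 UMI were 1.56%, 3.94%, 2.40% and 1.70%, which do not keep the order of the CPM levels. Macrophages had 18.1 CPM with depletion, 11.2 CPM with anti-CTLA-4 and 16.3 CPM with IgG. The macrophage level with depletion was 1.62-fold that with anti-CTLA-4 (1.08 to 2.50) and 1.05-fold in cluster 5 alone (0.602 to 1.82), and the size rule was not passed. Dendritic cells gave 4 Csf1 UMIs with depletion (2.72 CPM), 16 with anti-CTLA-4 (28.1 CPM) and 5 with IgG (9.07 CPM).

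**Figure D3:**
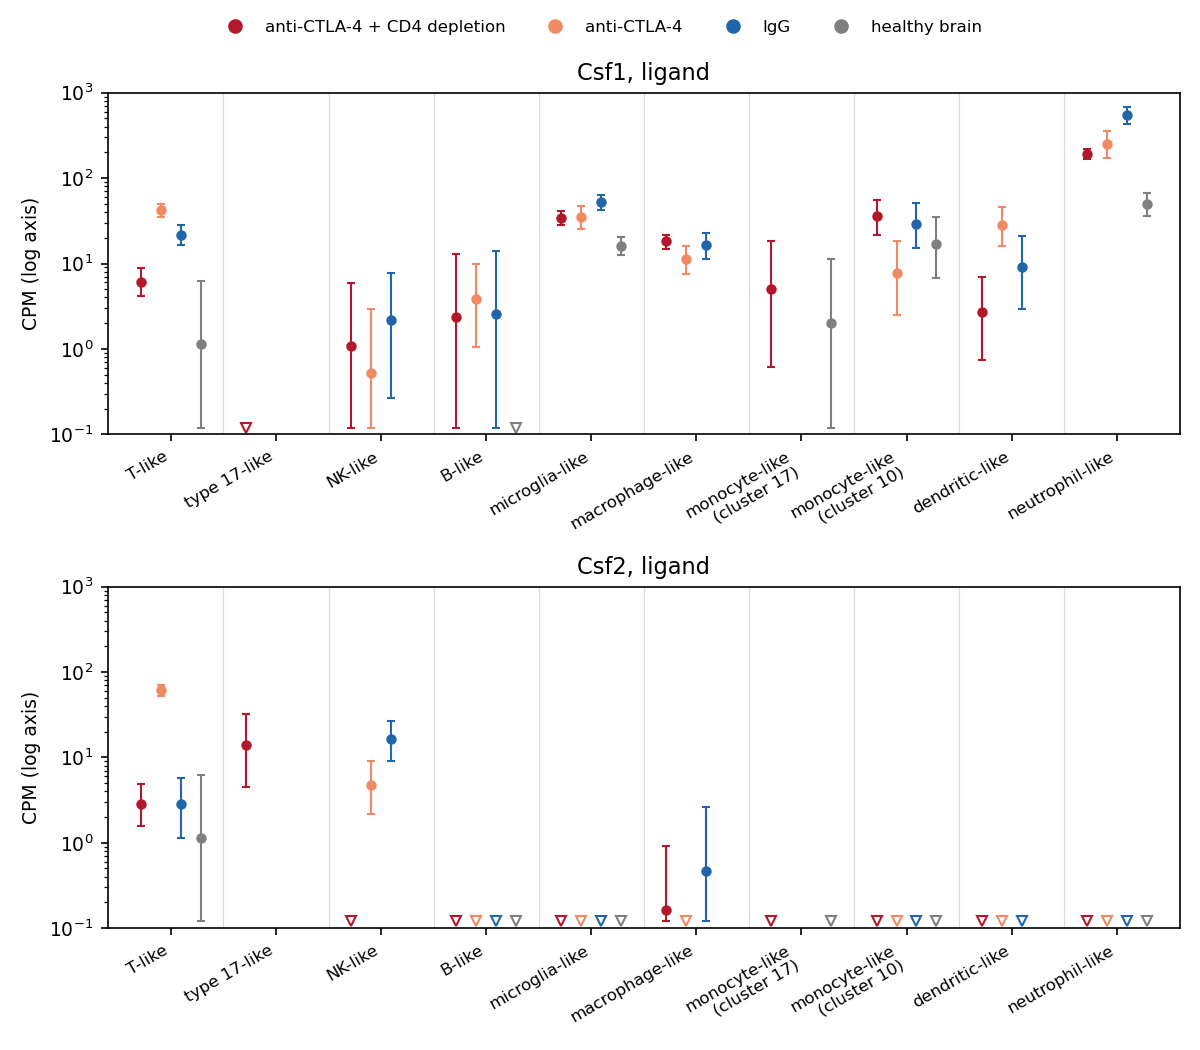
Csf1 and Csf2 level (CPM, y axis, log scale) by cell class (x axis) in each library with at least 40 cells of the class. Points are 1 library each, bars are exact 95% Poisson intervals and open triangles at the bottom mark 0 UMIs, and bars that reach below the axis end at its bottom; Csf1 is highest in neutrophils (up to 545 CPM) and Csf2 is at 0 in B cells, microglia, dendritic cells, monocytes and neutrophils.

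Csf1r (chr18:61100598-61132149, plus strand), the receptor of CSF1 and interleukin-34, was highest in microglia, and there it was lower in every tumor library than in healthy brain. Microglia had 1578 CPM (1536 to 1620.2) with depletion, 2372 CPM (2288 to 2458) with anti-CTLA-4, 2073 CPM (2011 to 2137) with IgG and 3953 CPM (3893 to 4015) in healthy brain. No pair of these intervals overlapped. IgG was 1.91-fold lower than healthy brain (1.84 to 1.97) and depletion 1.503-fold lower than anti-CTLA-4 (1.44 to 1.57), both short of the 2-fold size rule, and anti-CTLA-4 was 1.14-fold IgG. A Csf1r UMI was found in 96.4%, 97.6%, 90.4% and 99.0% of microglia in that order of libraries, and at 1000 UMIs per cell in 76.6%, 88.7%, 83.6% and 97.4%.

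The Csf1r level went with the microglial cluster. In cluster 11, led by the homeostatic genes Fcrls, P2ry12 and Gpr34, it was 3032 CPM with depletion, 3077 CPM with anti-CTLA-4, 3887 CPM with IgG and 3963 CPM in healthy brain, on 49, 32, 13 and 785 cells. In cluster 1 it was 1798 CPM with depletion, 2314 CPM with anti-CTLA-4 and 2132 CPM with IgG. In cluster 6, which the depletion library dominated, it was 1383 CPM in that library. The 12 microglial marker genes summed to 11863 CPM with depletion, 19471 CPM with anti-CTLA-4, 14608 CPM with IgG and 37191 CPM in healthy brain, and 14 macrophage markers to 16986, 8239, 12502 and 2189.9 CPM; their part in the Csf1r difference was not tested.

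Other myeloid classes held less Csf1r. Monocytes of cluster 10, led by Ace and Ear2, had 671 CPM with depletion, 830.3 CPM with anti-CTLA-4, 989 CPM with IgG and 1153 CPM in healthy brain, and their range did not reach that of microglia. Macrophages had 450.2 CPM with depletion, 653 CPM with anti-CTLA-4 and 737 CPM with IgG, a range that overlapped that of cluster 10. Monocytes of cluster 17 stood at 459 CPM with depletion and 482 CPM in healthy brain, the libraries with at least 40 of these cells. Dendritic cells had 120.3, 149 and 201 CPM, and neutrophils 61.9, 83.9, 115 and 88.3 CPM, in the library order used above. T cells held 8.40 to 12.5 CPM, found in 3.18 to 7.04% of cells, and NK cells 6.51 to 7.49 CPM in the tumor libraries, found in 2.49 to 3.66% of cells. In cluster 10 monocytes, macrophages and dendritic cells alike the depletion library had the lowest level and the IgG library the highest of the 3 tumor libraries.

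Csf2ra, the alpha chain that binds CSF2, was found in all myeloid classes, with ranges over libraries that overlapped between neighbouring classes in the order of levels. Monocytes of cluster 10 had 100.2 CPM with depletion, 185 CPM with anti-CTLA-4, 203 CPM with IgG and 243 CPM in healthy brain. Neutrophils had 101, 134, 194 and 175 CPM in the same order. Macrophages had 106 CPM with depletion, 131 CPM with anti-CTLA-4 and 148 CPM with IgG. The ranges of these 3 classes overlapped. Microglia had 99.7 CPM with depletion, 87.7 CPM with anti-CTLA-4, 119 CPM with IgG and 67.3 CPM in healthy brain, where IgG was 1.77-fold healthy brain (1.48 to 2.11) and did not pass the size rule. In healthy brain cluster 10 monocytes and neutrophils stood well above microglia, while with depletion the 4 classes were near each other. T cells had 2.26 to 3.79 CPM.

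Csf2rb, the shared signalling chain, was high in macrophages, dendritic cells, neutrophils and cluster 17 monocytes. In macrophages and dendritic cells it was lower with depletion. Macrophages had 224 CPM (213 to 237) with depletion, 468 CPM (443 to 494) with anti-CTLA-4 and 359 CPM (334 to 385) with IgG. Depletion was 2.09-fold lower than anti-CTLA-4 (1.93 to 2.25) and passed the size rule. In cluster 5 alone, which holds macrophages of all 3 tumor libraries, the level was 324 CPM with depletion, 469 CPM with anti-CTLA-4 and 359 CPM with IgG. There depletion was 1.45-fold lower (1.32 to 1.58) and the rule, which 2.53% of 6713 tested genes passed in cluster 5, was not passed. Cluster 2, found almost wholly in the depletion library, had 165 CPM. The 14 neutrophil marker genes summed in macrophages to 4474 CPM with depletion, 315 CPM with anti-CTLA-4 and 811 CPM with IgG. All 14 were detected with depletion, and Ngp, Camp, Stfa1 and Ly6g were at 0 with anti-CTLA-4. The part of these transcripts in the result was not tested.

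Dendritic cells gave the same direction for Csf2rb, at 158 CPM with depletion, 370.4 CPM with anti-CTLA-4 and 328 CPM with IgG. Depletion was 2.34-fold lower than anti-CTLA-4 (1.93 to 2.83) and passed the size rule. The 12 markers of conventional dendritic cells summed there to 1043 CPM with depletion, 1755 CPM with anti-CTLA-4 and 2177 CPM with IgG, so these markers were lower with depletion as well, and their part was not tested. Microglia had 118 CPM with depletion, 109 CPM with anti-CTLA-4, 132 CPM with IgG and 61.0 CPM in healthy brain. IgG exceeded healthy brain 2.16-fold (1.81 to 2.58) and passed the size rule. Monocytes of cluster 10 had 176, 183, 198 and 132 CPM in the same order, neutrophils 235, 302, 308 and 120.1 CPM, and cluster 17 monocytes 256 CPM with depletion and 141 CPM in healthy brain. B cells had 18.8 CPM with depletion, 17.2 CPM with anti-CTLA-4, 25.3 CPM with IgG and 0 UMIs in healthy brain, while T cells had at most 2.87 CPM.

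Csf2rb2, whose mouse product pairs with the interleukin-3 receptor only, followed Csf2rb in macrophages and dendritic cells. Macrophages had 66.0 CPM with depletion, 138 CPM with anti-CTLA-4 and 118 CPM with IgG (2.10-fold lower with depletion than with anti-CTLA-4, 1.82 to 2.42). In cluster 5 alone Csf2rb2 was 1.71-fold lower with depletion (1.43 to 2.05) and did not pass the size rule. Dendritic cells had 44.9 CPM with depletion, 104 CPM with anti-CTLA-4 and 85.2 CPM with IgG. Microglia had 40.4 CPM with depletion, 39.9 CPM with anti-CTLA-4, 51.6 CPM with IgG and 27.6 CPM in healthy brain. The neighbouring genes differed in neutrophils, where Csf2rb2 stood at 39.1 CPM with depletion, 8.39 CPM with anti-CTLA-4, 14.3 CPM with IgG and 7.07 CPM in healthy brain.

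A working CSF2 receptor needs both chains, so their joint detection was counted. Both Csf2ra and Csf2rb were seen in 112 of 534 microglia with depletion (21.0%), 32 of 209 with anti-CTLA-4 (15.3%), 76 of 303 with IgG (25.1%) and 59 of 791 in healthy brain (7.46%, exact interval 5.73 to 9.52%). The intervals of the 3 tumor libraries lay above that of healthy brain. Among macrophages both were seen in 297 of 728 with depletion (40.8%), 160 of 247 with anti-CTLA-4 (64.8%) and 129 of 248 with IgG (52.0%). At 1000 UMIs per cell joint detection stood at 0.977%, 1.48%, 1.20% and 0% of microglia and at 1.79%, 2.04% and 2.48% of macrophages, levels at which no order can be read. Macrophages were deeper, with medians of 7654.5 UMIs with depletion, 9907 with anti-CTLA-4 and 8763 with IgG. In T cells, the background for both chains, 1 cell of 2153 held both.

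**Figure D4:**
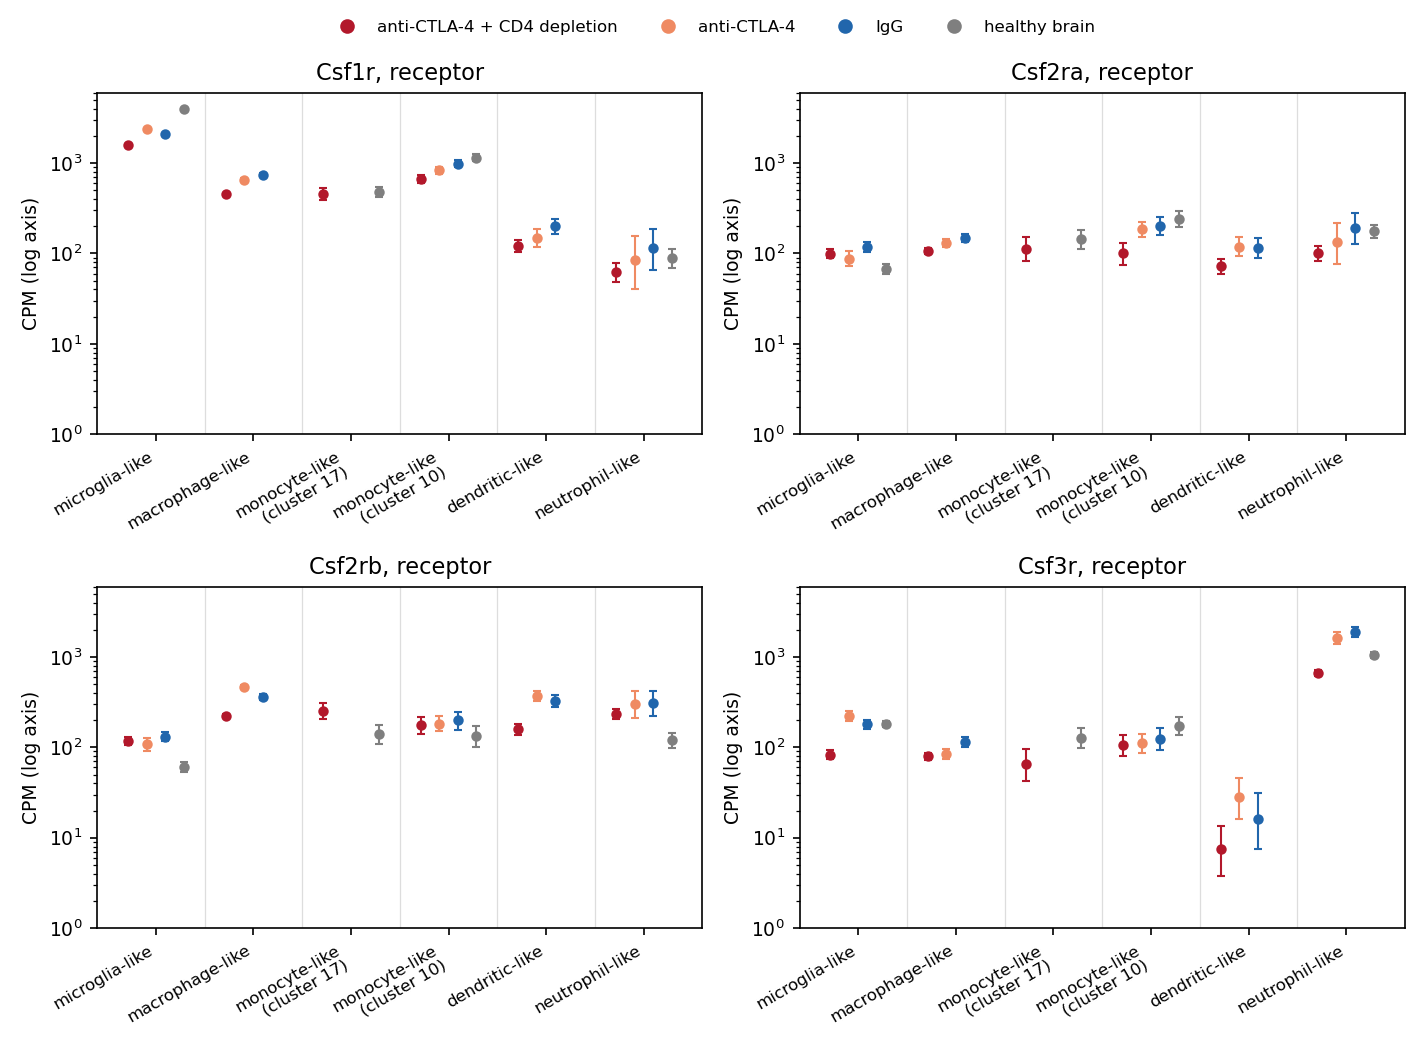
Level of Csf1r, Csf2ra, Csf2rb and Csf3r (CPM, y axis, log scale) in 6 myeloid classes (x axis) by library, with exact 95% Poisson intervals as bars. Csf1r separates microglia (1578 to 3953 CPM) from the rest, Csf3r separates neutrophils (661 to 1893 CPM), and Csf2ra runs from 67.3 to 243 CPM with overlap between neighbouring classes.

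Csf3r was highest in neutrophils, and microglia, monocytes and macrophages also carried it, with ranges that overlapped. Neutrophils had 661 CPM (614 to 711) with depletion, 1619.8 CPM (1399 to 1865) with anti-CTLA-4, 1893 CPM (1672 to 2136) with IgG and 1049 CPM (982 to 1121) in healthy brain. In the shared cluster 14 it was 1160 CPM with depletion, 1568 CPM with anti-CTLA-4 and 1858 CPM with IgG, and cluster 9, found in the depletion library, had 499 CPM. Microglia had 83.3 CPM (73.9 to 93.6) with depletion, 223 CPM (198 to 251) with anti-CTLA-4, 180 CPM (162 to 199) with IgG and 181 CPM (168 to 194) in healthy brain. Microglia of the depletion library stood apart from the other 3, while IgG and healthy brain did not differ beyond counting error (ratio 0.994, 0.874 to 1.13). Depletion was 2.68-fold lower than anti-CTLA-4 (2.26 to 3.17) and passed the size rule. In cluster 1 alone, Csf3r had 136 CPM with depletion, 224 CPM with anti-CTLA-4 and 191 CPM with IgG, 1.64-fold lower with depletion (1.32 to 2.04), and the rule, which 2.87% of 4990 tested genes passed there, was not passed. Cluster 6 had 53.5 CPM in the depletion library.

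Neutrophil transcripts in other cells are given beside Csf3r. In microglia the 14 neutrophil markers summed to 206 CPM with depletion, 6.26 CPM with anti-CTLA-4, 11.02 CPM with IgG and 287 CPM in healthy brain. The part of these transcripts in the Csf3r levels of microglia was not tested. Macrophages had 80.2 CPM of Csf3r with depletion, 84.1 CPM with anti-CTLA-4 and 114 CPM with IgG, and cluster 10 monocytes 106, 110.4, 125 and 173 CPM in the library order used above. Cluster 17 monocytes ran from 65.2 to 127 CPM over the depletion and healthy brain libraries. Dendritic cells stood at 7.48 to 28.1 CPM, and T, NK and B cells at 7.58 CPM or less.

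In the classes counted below, few members passed the size rule, and their number is read against the share of all tested genes. Neutrophils as a whole class are left out of this count, and no such share is given for them. Their levels of Csf1, Csf2rb and Csf3r, given above, differed 2-fold or more between some libraries, so the count does not describe neutrophils. In microglia 8.64% of 7359 tested genes passed between depletion and anti-CTLA-4, with 1 of 5 members (Csf3r, lower). Between anti-CTLA-4 and IgG 1.56% of 6547 genes passed and 0 of 5 members. Between IgG and healthy brain 11.5% of 8543 genes passed and 2 of 5 members (Csf1 and Csf2rb, both higher), with a median log2 ratio of -0.32 over tested genes. On median-of-ratios scaling, which removes that shift, Csf1 was 3.92-fold, Csf2rb 2.62-fold and Csf2ra 2.15-fold higher with IgG, and Csf1r 1.57-fold lower.

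In macrophages 7.86% of 7981 tested genes passed between depletion and anti-CTLA-4, with 1 of 5 members (Csf2rb, lower), and 1.42% of 6773 genes between anti-CTLA-4 and IgG, with 0 of 5. Dendritic cells gave 12.1% of 3905 genes between depletion and anti-CTLA-4, with 1 of 3 members (Csf2rb, lower), and 2.57% of 2607 genes between anti-CTLA-4 and IgG, with 0 of 3. In cluster 10 monocytes 3.7% of 3295 genes passed between depletion and anti-CTLA-4, 2.08% of 3074 between anti-CTLA-4 and IgG and 4.9% of 2530 between IgG and healthy brain, with 0 of 4 members each time. With so few members per comparison, a single member weighs heavily, so these counts are given as a description.

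**Figure D5:**
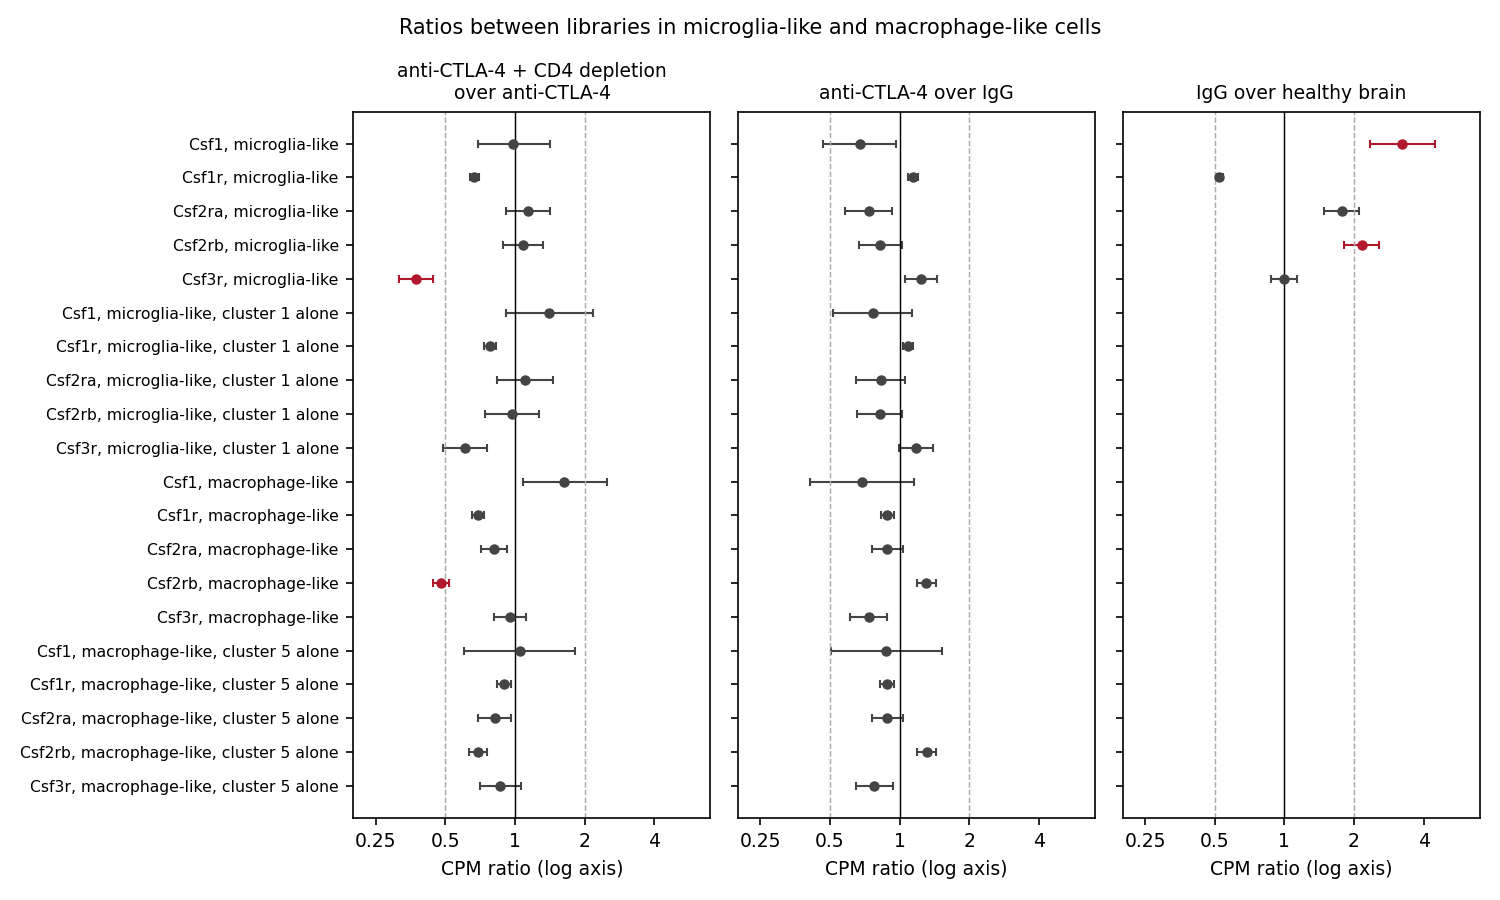
CPM ratio of each receptor chain and of Csf1 (x axis, log scale) in microglia, in microglial cluster 1 alone, in macrophages and in macrophage cluster 5 alone, for depletion over anti-CTLA-4, anti-CTLA-4 over IgG and IgG over healthy brain. Bars are exact 95% intervals, dashed lines mark ratios of 0.5 and 2 and red points passed the size rule; Csf3r in microglia (0.374) and Csf2rb in macrophages (0.479) lie below 0.5 for depletion over anti-CTLA-4, and move to 0.610 and 0.692 in the single clusters.

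Genes that act below these receptors were counted from a list of 19, among them the kinases Jak1 and Jak2, the STAT factors and the feedback inhibitors Cish and Socs1 to Socs3, which many other cytokines also induce. In macrophages all 19 were tested between depletion and anti-CTLA-4, and 0 passed as higher and 3 as lower with depletion, beside 7.86% of all tested genes in either direction. Socs1 had 81.7 CPM with depletion and 449.8 CPM with anti-CTLA-4 (5.51-fold lower, 4.96 to 6.12). Cish had 21.7 CPM with depletion and 54.5 CPM with anti-CTLA-4 (2.51-fold lower), and Stat5a 10.8 CPM and 23.8 CPM (2.21-fold lower). The median log2 ratio of the list was -0.37, against -0.00 over all tested genes. In cluster 5 alone Socs1 was 2.599-fold lower with depletion and passed, while Cish (1.84-fold lower) and Stat5a (1.96-fold lower) did not. Between anti-CTLA-4 and IgG 1 of 19 tested genes of the list passed, beside 1.42% of all 6773 tested genes. This was Socs1, at 449.8 CPM with anti-CTLA-4 and 215 CPM with IgG (2.09-fold higher).

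In microglia 16 of the list were tested between depletion and anti-CTLA-4, and 2 passed, beside 8.64% of all tested genes. Socs3 was higher with depletion, at 141 CPM against 57.1 CPM with anti-CTLA-4, and Socs1 lower, at 28.4 CPM against 59.5 CPM. In cluster 1 alone neither passed, with ratios of 1.53 for Socs3 and 0.886 for Socs1. Between IgG and healthy brain 17 were tested, 3 were higher and 1 lower, beside 11.5% of all tested genes. Pim1, a kinase induced by STAT signalling, had 128 CPM with IgG and 6.34 CPM in healthy brain (20.1-fold higher), Socs1 66.1 CPM and 6.59 CPM (10.0-fold higher) and Socs3 80.6 CPM and 22.9 CPM (3.52-fold higher). Stat5b had 16.5 CPM with IgG and 39.5 CPM in healthy brain (2.39-fold lower). Between anti-CTLA-4 and IgG 0 of 15 passed, beside 1.56% of all tested genes.

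Of a list of 10 myeloid lineage factors 8 were tested between depletion and anti-CTLA-4 in microglia and 8 in macrophages. In both classes Id2 and Klf4 passed as higher with depletion, beside 8.64% and 7.86% of all tested genes. Id2, an inhibitor of basic helix-loop-helix factors, had 222 CPM with depletion and 65.7 CPM with anti-CTLA-4 in microglia and 386 CPM and 97.1 CPM in macrophages. Klf4, a monocyte lineage factor, had 37.7 CPM with depletion and 8.61 CPM with anti-CTLA-4 in microglia and 74.7 CPM and 22.0 CPM in macrophages. The differences were smaller in clusters 1 and 5. The ratio of depletion to anti-CTLA-4 was 1.41 for Id2 and 1.15 for Klf4 in cluster 1, and 1.05 for Id2 and 1.40 for Klf4 in cluster 5, none past the size rule. Id2 did pass in cluster 10 monocytes, at 514 CPM with depletion and 74.6 CPM with anti-CTLA-4, and in neutrophil cluster 14, at 461 CPM and 225 CPM. Of the list 8 and 4 genes were tested there, beside 3.7% and 6.76% of all tested genes that passed. Over all neutrophils, which came from different clusters by library, Id2 had 1753 CPM with depletion and 210 CPM with anti-CTLA-4. The part of neutrophil transcripts in the Id2 levels of macrophages and microglia was not tested. Irf8, of the same list, passed as lower with depletion in cluster 10, at 142 CPM against 295 CPM with anti-CTLA-4. It also passed as lower in dendritic cells (156 and 434 CPM) and T cells (48.2 and 115 CPM), beside 12.1% and 1.11% of all tested genes. Spi1, which encodes PU.1, did not pass in microglia or macrophages, at 361 CPM with depletion and 348 CPM with anti-CTLA-4 in microglia. Of 14 genes listed as inducers of Csf2 in lymphocytes 11 were tested in T cells, and between depletion and anti-CTLA-4 only Tbx21, the factor of type 1 T cells, passed, beside 1.11% of all tested genes. It had 18.9 CPM with depletion and 38.2 CPM with anti-CTLA-4 (2.03-fold lower). Among T cells with a Cd8 UMI 10 were tested, and beside 3.01% of all tested genes Tbx21 passed as lower (2.19-fold) and Rora (3.59-fold) and Nfatc2 (2.11-fold) as higher with depletion. In cluster 8, mostly Cd4-bearing with anti-CTLA-4 and Cd8-bearing with depletion, Bhlhe40 had 94.9 CPM with depletion and 227 CPM with anti-CTLA-4, and Il2ra 24.2 CPM and 59.2 CPM. Trem2 was the only tested gene of the 3 listed as alternative interleukin-34 receptors in microglia, where it did not pass in any comparison.

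The genes whose levels were most like those of a member were sought over 29 sums of a class in a library, among 7384 genes, by Pearson correlation of log2(CPM + 5). The sums share libraries and depth, so the values are descriptions. Csf1r was closest to Cd68 (0.977), Adgre1 (0.976) and P2ry6 (0.974), the first of these macrophage marker genes. Csf2ra was closest to Alox5ap (0.968), Ltbr (0.964) and Il13ra1 (0.963), and Csf2rb to Milr1 (0.949), App (0.939) and Alox5ap (0.932). Csf3r was closest to C5ar1 (0.955), Mtus1 (0.951) and Nlrp3 (0.944). Csf1, with both lymphoid and myeloid sources, had the lowest values, with Siglecf (0.808), Cpeb2 (0.796) and Plk3 (0.768).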

How the data were processed

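Single-cell libraries of the 10x Genomics 3' version 2 chemistry were analysed from the deposited counts, which are whole numbers of UMIs per gene and cell barcode made by the authors (Cell Ranger 3.1.0, assembly mm10), per the submitters' processing notes. Deposited barcodes held at least 500 UMIs. Barcodes under 200 genes or over 10% mitochondrial UMIs were dropped, and doublets were removed with Scrublet (scanpy 1.11.5, expected rate 0.05). Where its own threshold marked under 0.5% of barcodes, the top 5% of scores were removed instead; 169, 90, 10 and 12 barcodes were removed from the depletion, anti-CTLA-4, IgG and healthy brain libraries. Counts were scaled to 10000 per cell and logged, and 2000 variable genes without the 7 members, 30 principal components and 15 neighbours gave Leiden clusters at resolution 1. Clusters were named by the marker lists, and 2 clusters of 102 and 28 cells stayed unnamed. The names were rebuilt here and are likenesses.

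UMIs were summed by class and library. Poisson intervals were used for CPM, Clopper-Pearson intervals for shares and conditional binomial intervals for ratios, all exact at 95%; a count of 0 was given a limit of 3 counts. With 1 library a group there was no test and no count model. Classes were compared where each of the 2 libraries had 40 cells or more. The text names the 7 members, of each list at most 3 genes past the size rule per direction and comparison, and the 3 genes most like each member with at least 500 UMIs. Not every list gene that passed is named. Between depletion and anti-CTLA-4, for example, Il1r2 in macrophages and Socs1 in dendritic cells passed as well. Values of Spi1, Trem2, the interleukin-3 family and of genes in Csf2-positive cells, and genes given in the shared clusters, were added after values were seen. The members and all gene lists were chosen with earlier results of these data known. The scripts were tested on simulated data. Of the 27998 gene identifiers, 27645 were found in GENCODE vM21. Alternatives were other filters on cells, doublets, scaling, clustering, gated classes, thinned depth and thresholds. Python 3.11.15, numpy 2.4.6, scipy 1.17.1, pandas 2.3.3 and matplotlib 3.10.9 were used.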

Additional observations from a re-analysis of the deposited data

Results flagged for a closer look

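Csf1 stood on opposite sides of 1 in different cell classes of the same comparison, and none of these differences between classes was tested. Between anti-CTLA-4 and IgG the Csf1 ratio was 1.95 in T cells (1.41 to 2.73; 42.3 CPM with anti-CTLA-4 and 21.7 CPM with IgG) and 0.462 in neutrophils (0.292 to 0.713; 252 CPM and 545 CPM). Between depletion and anti-CTLA-4 it was 1.62 in macrophages (18.1 CPM with depletion and 11.2 CPM with anti-CTLA-4) and 0.145 in T cells (0.0944 to 0.217; 6.15 CPM and 42.3 CPM). In macrophage cluster 5 alone the ratio of depletion to anti-CTLA-4 was 1.05 (0.602 to 1.82).

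Members were also found in cells outside every named class. Unnamed cluster 20 held 28 cells, 25 from the IgG library and 3 from the anti-CTLA-4 library, with a median of 687.5 UMIs per cell and Retnla, Ccr3, Alox15, Adamdec1 and Il4 among its leading genes. Its Csf2rb level was 537 CPM on 13 UMIs in 9 of 28 cells, above the highest named class at 311 CPM over all libraries. Its Csf1 level was 165 CPM on 4 UMIs, beside 162 CPM in neutrophils over all libraries, the highest named class; neutrophils of the IgG library, which gave most cells of cluster 20, stood at 545 CPM.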

How the results depend on the processing

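No ratio of a member that passed the size rule in the main or the alternative run changed sides. Ratios that passed in neither run changed sides 21 times over the alternative runs. The ratio of depletion to anti-CTLA-4 for Csf2rb in macrophages (0.479) no longer passed the size rule with no doublet removal (0.544), with totals that leave out ribosomal protein and mitochondrial genes (0.512), with the members kept among the variable genes (0.605), with classes gated on marker UMIs (0.501) or in cluster 5 alone (0.692). Csf3r in microglia (0.374) no longer passed in cluster 1 alone (0.610). With cells thinned to 1000 UMIs, Csf1 in T cells, depletion over anti-CTLA-4 (0.145), was 0.0776, and Csf1 in microglia, IgG over healthy brain (3.23), was 2.52, both with fewer UMIs than the rule asks for. Csf1r in microglia, IgG over healthy brain (0.524), passed with gated classes (0.499) and with a ratio of at least 1.5 (0.524). Csf2 in T cells, anti-CTLA-4 over IgG, passed at 21.7 with at least 20 UMIs and no minimum share. Over 8 comparisons (microglia, macrophages and T cells) the members passed 5 times in all (Csf1 and Csf2rb 2 times each, Csf3r 1 time), against 3 times after thinning, 2 over 7 comparisons with cluster 1 alone, 9 at a ratio of 1.5 and 8 with at least 20 UMIs and no minimum share. In the main run 1 to 5 members were tested per comparison. There the share of all tested genes that passed ran from 0.271% to 12.5%. That share was not computed for thinned cells or the looser rules, and in cluster 1 only for depletion over anti-CTLA-4. The alternative counts are therefore given without a background. Leaving out the top Csf2 cell and taking cluster 1 or 5 alone were chosen after seeing the data. Csf2ra in microglia, IgG over healthy brain, passed on median-of-ratios scaling (2.15), and Csf1 in T cells, anti-CTLA-4 over IgG, with gated classes (2.04). No paired analysis was possible because each group has 1 library. The causes of these changes were not tested. Depth limits Csf2, Il34 and all thinned shares, and no library could be left out.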
